A study of Homo sapiens with 4 samples.

Results

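The genes described here are the autophagy receptors SQSTM1, NBR1, OPTN, CALCOCO2 and TAX1BP1 and the ATG8 family genes MAP1LC3A, MAP1LC3B, GABARAP, GABARAPL1 and GABARAPL2. They were chosen by name, and they make up 10 of the 34080 genes to which the transcripts of the files could be assigned. The cells were HK-2, an immortalised human renal proximal tubule line, carrying a construct from which doxycycline induces HA-PRCC-TFE3, an HA-tagged fusion of PRCC with the transcription factor TFE3. Cultures labelled Doxy(+) had received 0.2 microg/ml of doxycycline for 24 h, and those labelled Doxy(-) had received none. Both groups carried the construct, and each had 2 libraries of polyadenylated RNA. Cells without the construct were not analysed here. Effects of the fusion and of doxycycline alone therefore cannot be told apart. The sources used here do not say whether the cells were a single clone, nor whether replicates were separate cultures, and p-values therefore measure the spread between these libraries, which may be technical.

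In selective autophagy, a receptor binds cargo, often cargo marked with ubiquitin, and also binds an ATG8 protein on the growing autophagosome membrane. ATG8 proteins are joined to a membrane lipid by a conjugation system resembling that of ubiquitin, and in human cells they form the LC3 and GABARAP subfamilies. TFE3 and its relatives of the MiT/TFE family are known to drive genes of lysosomes and autophagy. All values here are RNA levels, and neither autophagic flux nor protein was measured.

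Sequence determines how well reads of a member can be separated from those of its relatives, and the closest relative with reads was MAP1LC3B2 on chromosome 12. The coding sequences of MAP1LC3B and MAP1LC3B2, both 378 bases long, differed at 2 positions, C30G and A338G, counted from the first base of the start codon with the MAP1LC3B base first. Of the 304 windows of 75 bases, the read length in the study's methods, 233 were identical between them. The first 75 coding bases of each, read from GENCODE release 44 transcripts, are shown because they hold the first of these differences, which is in capitals. MAP1LC3B lies on the plus strand at chr16:87383953-87404779 (hg38), and its window is coding and crosses an exon junction.
MAP1LC3B: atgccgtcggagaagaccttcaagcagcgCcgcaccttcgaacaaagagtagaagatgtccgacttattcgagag
MAP1LC3B2: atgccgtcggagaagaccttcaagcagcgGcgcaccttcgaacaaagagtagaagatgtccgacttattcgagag

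Over all its transcripts, MAP1LC3B shared 326 of 4143 windows (7.87%) with MAP1LC3B2 on the same strand. GABARAP shared 621 of 2081 windows (29.8%) with a read-through gene that has no symbol, whose estimated counts were 0 in 3 libraries and 0.0177 in Doxy(+) 2. NBR1 shared 3 of 8611 windows with DRAXIN, and the other members shared none on the same strand. The annotated pseudogene SQSTM1P1 was at 0 counts in every library, and MAP1LC3BP1 had 1 count, in Doxy(+) 2. On the opposite strand, 1472 of the 7878 SQSTM1 windows (18.7%) were shared, nearly all with MRNIP, which bears on the SQSTM1 transcripts below. Opposite-strand sharing was 6.68% for GABARAP, 4.52% for NBR1, 4.06% for TAX1BP1, 3.72% for GABARAPL1 and 1.95% for OPTN. The remaining members shared none there.

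Promoter sequences from RefSeq (GRCh38.p14), each running from 250 bases before a start site to 50 after it, were at hand for 9 members in 14 windows, and MAP1LC3A had no entry. They were searched on both strands for CACGTG, the palindromic E-box, for TCACNTGA, and for TGACNNNGC, the core of the antioxidant response element. TCACNTGA holds CACGTG only where its N is G, so a match to it need not be a site for MiT/TFE factors. These motifs were chosen after the promoters had been seen. CACGTG was in 0 of the 14 windows and in 7.26% of all 35116 promoter windows. TCACNTGA was in 2 of the 14, those of MAP1LC3B and CALCOCO2, and in 3.79% of all windows. TGACNNNGC was in the same 2 windows, where it overlapped TCACNTGA, and in 13.3% of all windows. The first base of TCACNTGA lay at position -51 in MAP1LC3B and -123 in CALCOCO2. Both matches read TCACCTGA, so neither holds CACGTG at its centre, and neither is taken here as a MiT/TFE site. A match is a description of the letters and not a measured site. The 250 bases before the start are shown for both, with the TCACNTGA match in capitals, and for SQSTM1, whose change in RNA was the largest among the members and whose window before the start of its longest coding transcript held no match.
MAP1LC3B, chr16:87392086-87392335, plus strand: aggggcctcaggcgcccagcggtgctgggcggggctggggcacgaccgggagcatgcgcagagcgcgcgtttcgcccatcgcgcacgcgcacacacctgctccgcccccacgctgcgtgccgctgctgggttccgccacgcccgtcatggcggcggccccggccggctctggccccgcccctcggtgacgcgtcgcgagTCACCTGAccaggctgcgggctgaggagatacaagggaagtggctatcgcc
CALCOCO2, chr17:48830785-48831034, plus strand: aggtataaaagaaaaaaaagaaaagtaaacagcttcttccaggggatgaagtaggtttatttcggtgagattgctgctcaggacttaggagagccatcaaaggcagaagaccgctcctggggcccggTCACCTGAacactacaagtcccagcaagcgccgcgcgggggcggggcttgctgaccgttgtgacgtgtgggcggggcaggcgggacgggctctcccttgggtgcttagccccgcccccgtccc
SQSTM1, chr5:179820655-179820904, plus strand: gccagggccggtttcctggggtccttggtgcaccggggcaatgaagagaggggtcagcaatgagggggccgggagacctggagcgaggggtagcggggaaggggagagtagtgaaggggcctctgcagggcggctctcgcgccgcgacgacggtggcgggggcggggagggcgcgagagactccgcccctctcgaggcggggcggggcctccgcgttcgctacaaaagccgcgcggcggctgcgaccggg

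The estimated counts of a library summed to between 14042545 and 16618401, of which between 12654233 and 15012743 fell on the genes analysed. On the CPM scale, which divides a count by the scaled total of its library, a count of 3 corresponded to between 0.204 and 0.233 CPM. TFE3, whose reads include any placed there from the transgene, measured 66.9 and 69.0 CPM in the cultures without doxycycline, and 367 and 322 CPM in those with it, in the direction of the labels. Of the 10 proximal tubule markers, 5 had over 3 counts in all libraries, and the sum of all 10, mostly PAX8, ran from 640 to 649 CPM in Doxy(-) and from 669 to 696 CPM in Doxy(+). SLC34A1, the phosphate transporter of this segment, fell outside that pattern, with 1.32 and 1.09 CPM in Doxy(-) against 0.233 and 0.521 CPM in Doxy(+), ranges that did not overlap. Its log2 fold change of -1.64 ± 0.514 (SE) did not pass, at an adjusted p of 0.0779 from edgeR. The defining markers LRP2 and AQP1 were at or near 0 and SLC22A6 was at 0, so the label of proximal tubule rests here on few of its markers. The 5 epithelial markers summed to 1389 and 1372 CPM in Doxy(-) and to 1109 and 1114 CPM in Doxy(+). Of the 4 that were tested, 3 were lower at an edgeR adjusted p under 0.05 and 0 higher, where 9.53% of all genes tested were lower. Leukocyte markers summed to 144 and 150 CPM in Doxy(-) and to 191 and 190 CPM in Doxy(+), nearly all of it CD68, a lysosomal protein that is not restricted to leukocytes, with CD3E at 0. Endothelial markers summed to at most 1.05 CPM, with CDH5 and KDR at 0. In bulk RNA, fewer cells with a marker and less of its RNA per cell cannot be told apart. The part of these marker differences in the results was not tested.

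Doxy(+) libraries held more RNA of 5 members, and 0 members were lower past the test. SQSTM1 changed the most, followed by MAP1LC3B, GABARAP, OPTN and TAX1BP1. The test was edgeR's quasi-likelihood test, adjusted over the 13569 genes that passed the low-count filter, and a member counted as passed at an adjusted p under 0.05. Of the 10 members 9 were tested, and MAP1LC3A fell under the filter. Over all genes tested, 9.76% were higher and 9.53% were lower at that limit. When a log2 fold change over 1 was also required, 1 member was higher, SQSTM1, and 0 were lower, where 1.50% of all genes were higher, 0.479% lower and 1.98% either. At an unadjusted p under 0.05, 7 members were higher and 0 lower, where 16.8% of all genes tested were higher and 16.6% lower. DESeq2 and limma also called 0 members lower. With either Doxy(+) library left out, 3 members were higher. The log2 fold change was above 0 in 8 of the 9 members tested and in 50.1% of all genes tested, and its median was 0.24 over the members and 0.00062 over all genes. The CPM ranges of the groups did not overlap for 7 members that were higher and 1 that was lower, where 31.1% and 30.0% of all genes tested did so.

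**Figure D1:**
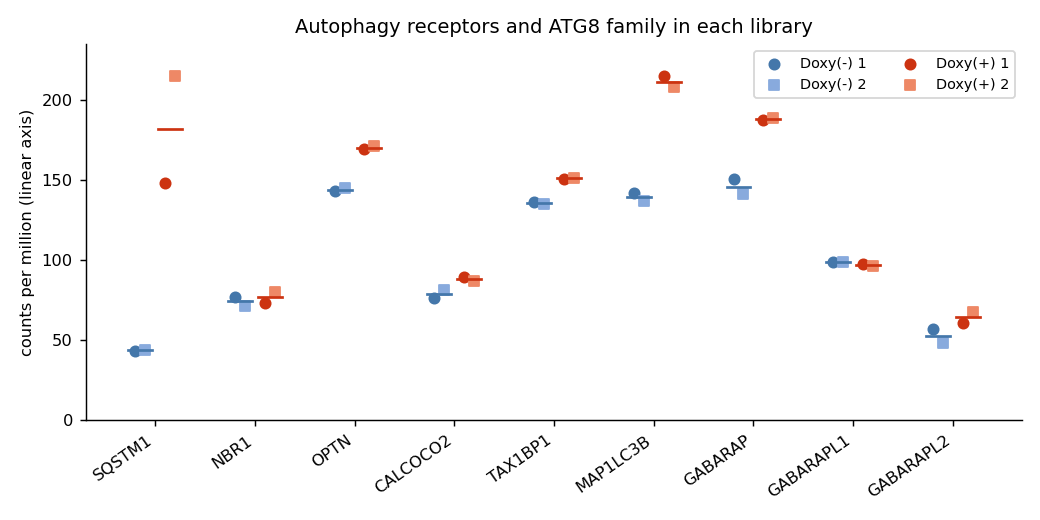
CPM of each member (linear vertical axis) in the 2 Doxy(-) libraries (blue) and the 2 Doxy(+) libraries (red), with circles for replicate 1, squares for replicate 2 and lines for group means; MAP1LC3A, with at most 2 counts in a library, is left out. SQSTM1 rises from about 44 CPM to 148 and 215 CPM, and its Doxy(+) libraries stand farther apart than those of the other members.

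Among the receptors SQSTM1 changed the most. It encodes p62, which gathers ubiquitin-marked cargo into bodies and hands it to LC3. Its RNA came to 43.6 and 44.1 CPM uninduced and 148 and 215 CPM induced. The groups were well separated, at 43.8 ± 0.357 and 182 ± 47.4 CPM (SD, n = 2 each), and edgeR gave a log2 fold change of 2.05 ± 0.177 (SE) at an adjusted p of 0.00103. This size rests largely on 1 coding transcript, the one that MANE Select, a set of reference transcripts, lists for SQSTM1. Of its 2840 exon bases in GENCODE release 44, 620 overlap a gene on the other strand. In alternatives chosen after seeing the data, the log2 fold change was 0.64 without that transcript (edgeR adjusted p = 0.00943). It was 0.87 with the counts of the opposite-strand neighbours MRNIP and MGAT4B added (edgeR adjusted p = 0.00285). Both values lie under the fold limit, but both settings lower the value by construction and cannot show whether reads were misplaced. MGAT4B, which shared 32 of the 7878 SQSTM1 windows, averaged 139 CPM in Doxy(-) and 162 CPM in Doxy(+). The Doxy(+) libraries of SQSTM1 differed from each other by 0.54 on the log2 scale. Among the 4393 genes with a Doxy(+) mean of at least 50 CPM, 19 had Doxy(+) libraries as far apart, and the median distance was 0.0441.

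OPTN encodes optineurin, a receptor for damaged mitochondria and intracellular bacteria. It read 143 and 145 CPM in the Doxy(-) libraries, against 169 and 172 CPM in the Doxy(+) ones, and both Doxy(+) libraries lay above both Doxy(-) libraries. The difference on the log2 scale was 0.24 ± 0.0369 (SE) and the adjusted p from edgeR was 0.00749, and the call was lost when either Doxy(+) library was left out, at an adjusted p of 0.0612 without replicate 1 and 0.0700 without replicate 2. TAX1BP1, which clears ubiquitin-marked aggregates and works together with NBR1 and p62, measured 137 and 135 CPM without doxycycline, and 151 in each Doxy(+) library. The groups did not overlap. The difference on the log2 scale was 0.16 ± 0.0374 (SE) and the adjusted p from edgeR was 0.0352, and the call was lost without any 1 of the 4 libraries, at adjusted p between 0.0565 and 0.196.

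CALCOCO2 encodes NDP52, a receptor for bacteria and mitochondria. It measured 76.5 and 81.3 CPM in the cultures without doxycycline, and 89.6 and 86.9 CPM in those with it, with no overlap, but it missed the limit, and edgeR gave a log2 fold change of 0.16 ± 0.0539 (SE) at an adjusted p of 0.0941. NBR1, an aggregate receptor older in evolution than p62, came to 77.0 and 71.7 CPM uninduced and 73.3 and 80.4 CPM induced. These ranges overlapped, and the log2 fold change of 0.050 ± 0.0677 (SE) had an adjusted p of 0.658 from edgeR. Over the 5 receptors, 3 were higher, where 9.76% of all genes tested were, and the median log2 fold change was 0.16.

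In the LC3 subfamily, MAP1LC3B encodes LC3B, the ATG8 protein most used as a marker of autophagosomes. It read 142 and 137 CPM in the Doxy(-) libraries, against 215 and 208 CPM in the Doxy(+) ones, and the gap between the groups exceeded the distance between replicates in both. The difference on the log2 scale was 0.60 ± 0.0400 (SE) and the adjusted p from edgeR was 0.000447. MAP1LC3A had 1 and 0 estimated counts in Doxy(-) and 0 and 2 in Doxy(+), which is under the level that 3 counts would give, so no fold is given. Of the relatives outside the members, MAP1LC3B2 had 108 and 82.4 estimated counts in Doxy(-) and 114 and 116 in Doxy(+), a difference of 0.33 on the log2 scale (edgeR adjusted p = 0.341). With its counts added to those of MAP1LC3B, an alternative chosen after seeing the data, the log2 fold change of MAP1LC3B was 0.59. MAP1LC3C had 11.3 and 8.22 counts in Doxy(-) and 20.6 and 19.0 in Doxy(+), a log2 fold change of 1.13 that did not pass (edgeR adjusted p = 0.110). GABARAPL3 had 0 estimated counts in 3 libraries and about 1 in Doxy(-) 1.

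In the GABARAP subfamily, whose proteins act mainly at later steps of autophagosome formation, 1 of 3 genes was higher, where 9.76% of all genes tested were. GABARAP measured 150 and 141 CPM in the cultures without doxycycline, and 188 and 189 CPM in those with it, so the groups did not overlap. The difference on the log2 scale was 0.37 ± 0.0436 (SE) and the adjusted p from edgeR was 0.00317. GABARAPL2, also known as GATE-16, came to 57.1 and 48.0 CPM uninduced and 60.7 and 67.9 CPM induced, and its log2 fold change of 0.29 ± 0.0991 (SE) did not pass, at an adjusted p of 0.0953 from edgeR. It passed when Doxy(-) replicate 1 was left out, at a log2 fold change of 0.42 and an edgeR adjusted p of 0.0170. GABARAPL1, a close homologue of GABARAP, read 98.8 and 98.9 CPM in the Doxy(-) libraries, against 97.6 and 96.2 CPM in the Doxy(+) ones, and the log2 fold change of -0.028 ± 0.0435 (SE) had an adjusted p of 0.700 from edgeR.

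**Figure D2:**
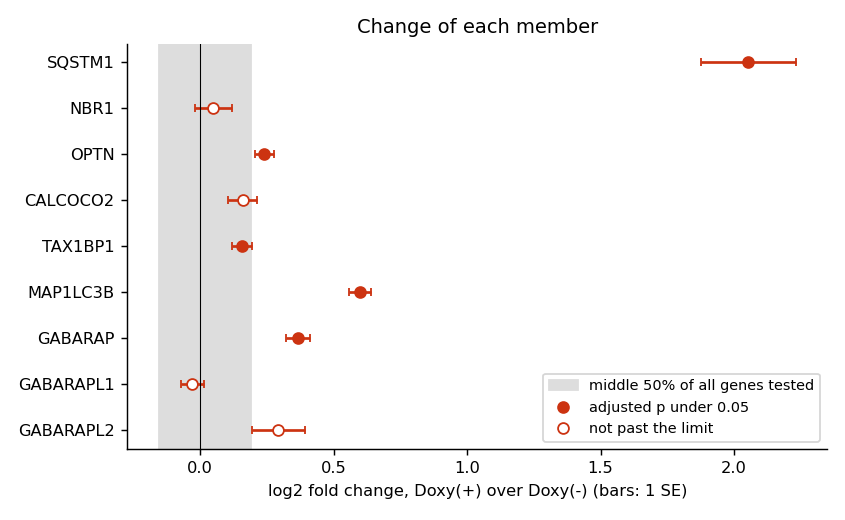
Log2 fold change of each tested member, Doxy(+) over Doxy(-), on the horizontal axis; bars are 1 SE, filled points passed an edgeR adjusted p under 0.05, and the grey band holds the middle 50% of all genes tested, from -0.15 to 0.19. SQSTM1 lies at 2.05 and MAP1LC3B at 0.60, while NBR1 and GABARAPL1 lie near 0.

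Levels of different genes were compared as deposited TPM, a transcript abundance scaled by length and by the total of the library. In Doxy(-), GABARAP had the highest mean level of the members, 371 TPM, followed by OPTN at 103, MAP1LC3B at 94.0, GABARAPL1 at 87.6, GABARAPL2 at 83.5, TAX1BP1 at 78.2, CALCOCO2 at 69.1, SQSTM1 at 42.4, NBR1 at 25.9 and MAP1LC3A at 0.0928 TPM. The ranges of GABARAPL1 and GABARAPL2, and of GABARAPL2 and TAX1BP1, overlapped in that order. In CPM, which is not scaled by length, GABARAP, OPTN and MAP1LC3B averaged 146, 144 and 140 in Doxy(-). TPM depends on the lengths of the transcripts to which reads were assigned. For GABARAP, the 583-base transcript held 26.9% and 25.9% of its TPM in Doxy(-), and the 476-base one 21.3% and 17.7%. In Doxy(+), GABARAP was again the highest at 490 TPM, and SQSTM1 moved from the eighth place to the third, at 124 TPM. Its libraries, at 109 and 139 TPM, overlapped the ranges of MAP1LC3B, at a mean of 142 TPM, and of OPTN, at 123 TPM. Below them were GABARAPL2 at 105, GABARAPL1 at 91.1, TAX1BP1 at 89.2, CALCOCO2 at 79.2, NBR1 at 28.0 and MAP1LC3A at 0.183 TPM, with GABARAPL1 and TAX1BP1 overlapping.

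Receptor TPM added up to 322 and 315 in the Doxy(-) libraries, against 426 and 459 in the Doxy(+) ones. SQSTM1 made up 14.4% and 12.2% of that sum in Doxy(-) and 25.5% and 30.2% in Doxy(+). Part of this SQSTM1 TPM lay on an 808-base transcript annotated as retaining an intron. That transcript held 50.4% and 36.3% of SQSTM1 TPM in Doxy(-) and 29.4% and 19.3% in Doxy(+). The ATG8 family summed to 666 and 607 TPM in Doxy(-) and to 820 and 836 TPM in Doxy(+). GABARAP held between 58.3% and 60.0% of it in all 4 libraries, MAP1LC3B went from 14.6% and 14.9% to 17.7% and 16.6%, and GABARAPL1 from 13.3% and 14.3% to 10.02% and 11.98%.

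**Figure D3:**
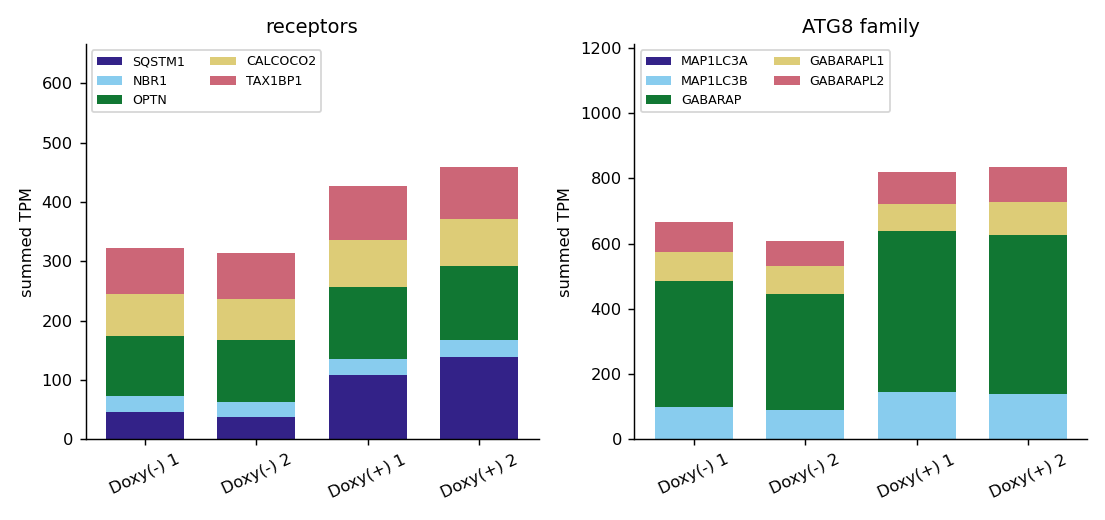
Summed TPM (vertical axes, linear from 0) of the receptors (left) and the ATG8 family (right) in each library, with each member as a segment; MAP1LC3A is too low to see. The SQSTM1 segment grows from 14.4% and 12.2% of the receptor sum to 25.5% and 30.2%, and GABARAP holds between 58.3% and 60.0% of the ATG8 sum in each library.

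Transcripts were described without a test, because the quantifier divides reads among them. Most of the SQSTM1 rise was assigned to its longest coding transcript (2986 bases in the files), which starts where the SQSTM1 promoter window printed above ends. It measured 11.2 and 16.8 CPM in the cultures without doxycycline, and 99.2 and 172 CPM in those with it, which is 88.1% of the rise of the gene. The shorter coding transcript (2253 bases) came to 14.7 and 15.1 CPM uninduced and 27.7 and 23.7 CPM induced, 7.80% of the rise, and the groups did not overlap. The retained-intron transcript (808 bases) read 11.6 and 6.91 CPM in the Doxy(-) libraries, against 15.3 and 12.9 CPM in the Doxy(+) ones.

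**Figure D4:**
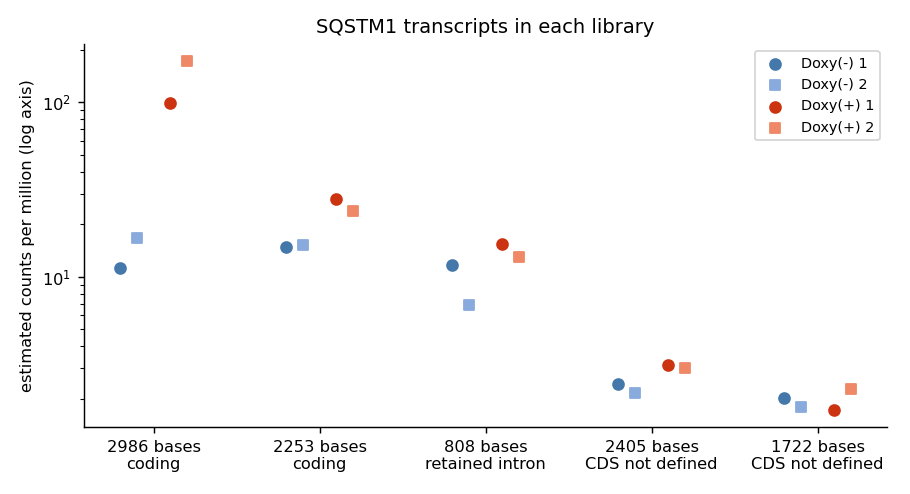
Estimated counts in CPM (log axis) of the 5 SQSTM1 transcripts averaging 1 CPM or more, in each library. The 2986-base transcript goes from 11.2 and 16.8 to 99.2 and 172 CPM, and the 1722-base transcript overlaps between the groups.

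In GENCODE release 44 on hg38, SQSTM1 lies on the plus strand at chr5:179806398-179838078. The model of the 2986-base transcript in that release has 2840 exon bases, so the version in the files differs from it, at a place not known here. In the GENCODE model the last exon runs 823 bases past the end of the 2253-base transcript. Of the 2840 exon bases of this model, 620 lie over an exon of MRNIP on the other strand. The 2253-base and 808-base transcripts have none there. The kit kept strand, but whether the counting used it is not given in the sources used here, so reads of SQSTM1 and MRNIP may not be separable there. MRNIP itself measured 16.2 and 16.04 CPM in the cultures without doxycycline, and 16.5 and 19.2 CPM in those with it, a difference of 0.15 on the log2 scale (edgeR adjusted p = 0.391). MGAT4B, the other overlapping neighbour, had a log2 fold change of 0.22 (edgeR adjusted p = 0.0701). The 2986-base transcript is the one left out in the alternative above.

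In the ATG8 family, the 2688-base coding transcript of MAP1LC3B came to 116 and 117 CPM uninduced and 183 and 182 CPM induced, whereas its 1259-base transcript, annotated as a target of nonsense-mediated decay, overlapped between groups at 25.5, 19.0, 29.0 and 24.1 CPM. The 762-base coding transcript of GABARAP read 90.9 and 91.2 CPM in the Doxy(-) libraries, against 122 and 123 CPM in the Doxy(+) ones. Of the 6 GABARAPL1 transcripts averaging 1 CPM or more, 0 were higher and 2 lower in Doxy(+) without overlap of ranges. Of the 3 such GABARAPL2 transcripts, 1 was higher and 1 lower. Among the receptors, the OPTN transcripts of 2464 and 3304 bases were higher in both Doxy(+) libraries than in both Doxy(-) libraries, while that of 2498 bases was lower, at 35.9 and 33.4 against 30.1 and 22.9 CPM. The CALCOCO2 transcript of 3682 bases went from 29.0 and 30.9 to 39.0 and 36.1 CPM, and that of 1916 bases from 24.6 and 27.3 to 19.5 CPM in each Doxy(+) library. All transcripts of NBR1 and TAX1BP1 averaging 1 CPM or more overlapped between the groups.

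The genes whose profile was most like that of SQSTM1, by the root mean square distance of log2 CPM over the 4 libraries centred on the Doxy(-) mean, were PPIF (0.193), TNFRSF14 (0.202) and RRAGD (0.213), out of 9600 genes averaging 10 CPM or more. PPIF went from 316 and 313 to 1286 and 1280 CPM, TNFRSF14 from 27.5 and 23.5 to 106 and 108 CPM, and RRAGD from 20.7 and 21.0 to 78.4 and 77.9 CPM. Their Doxy(+) libraries lay closer together than those of SQSTM1.

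Lists of genes that work beside the members were counted in the same fit, without a test of a list as a whole. For each list here and below, the share to set beside its counts is 9.76% of all genes tested higher and 9.53% lower. Among 11 genes that process ATG8 proteins and join them to lipid, 1 was higher and 1 lower, with a median log2 fold change of 0.10. The protease ATG4A rose by 0.61 on the log2 scale (edgeR adjusted p = 0.0254), and ATG16L2, a homologue of the conjugation scaffold ATG16L1, fell by 0.45 (edgeR adjusted p = 0.0126). Among 9 receptors for the endoplasmic reticulum, 2 were higher, CALCOCO1 (0.33) and RETREG2 (0.32), with a median of 0.12. Among 8 mitophagy receptors only BCL2L13 passed, at 0.33, and BNIP3 had 0.19 with an edgeR adjusted p of 0.0553, with a median of 0.10. Of 6 other cargo receptors and adaptors, NCOA4, the ferritin receptor, was higher by 0.50 and TOLLIP, an adaptor for ubiquitin-marked aggregates, by 0.49, and the median of the list was -0.04. Without Doxy(+) replicate 1, BCL2L13, ATG16L2 and the receptors for the endoplasmic reticulum no longer passed, and without Doxy(+) replicate 2 those receptors and ATG4A did not. ATG4A also missed the limit without Doxy(-) replicate 1.

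Of 8 genes for kinases that act on receptors and for adaptors of those kinases, 0 were higher, also at an unadjusted p under 0.05 and by DESeq2, and 2 were lower, namely the autophagy-initiating kinase ULK1 (-0.28) and CSNK2A1 (-0.13), with a list median of -0.08. With either Doxy(+) library left out, 0 of them were lower. Of 9 adaptors that bind ATG8 proteins in membrane transport, 4 were higher and the median log2 fold change was 0.21. Fewer were higher whenever a library was left out. PLEKHM1, which links autophagosomes to the machinery of lysosomal fusion, measured 70.2 and 70.5 CPM in the cultures without doxycycline, and 129 and 126 CPM in those with it, a log2 fold change of 0.86 (edgeR adjusted p = 0.000216). TP53INP2, which binds LC3 and GABARAP proteins, had 0.67.

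The KEAP1-NRF2 axis is joined to p62, which binds KEAP1, and SQSTM1 is a known NRF2 target. Of its 9 genes listed, 1 was higher, 2 were lower and the median log2 fold change was -0.12. HMOX1, which encodes a haem-degrading enzyme, came to 42.0 and 40.6 CPM uninduced and 108 and 105 CPM induced, with a log2 fold change of 1.37 and an edgeR adjusted p of 8.05e-05. GCLM, a subunit of the enzyme that starts glutathione synthesis, was lower by a log2 fold change of -0.35 (edgeR adjusted p = 0.0107). Without Doxy(+) replicate 1 the genes lower on this axis came to 1, and without Doxy(+) replicate 2 to 0.

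**Figure D5:**
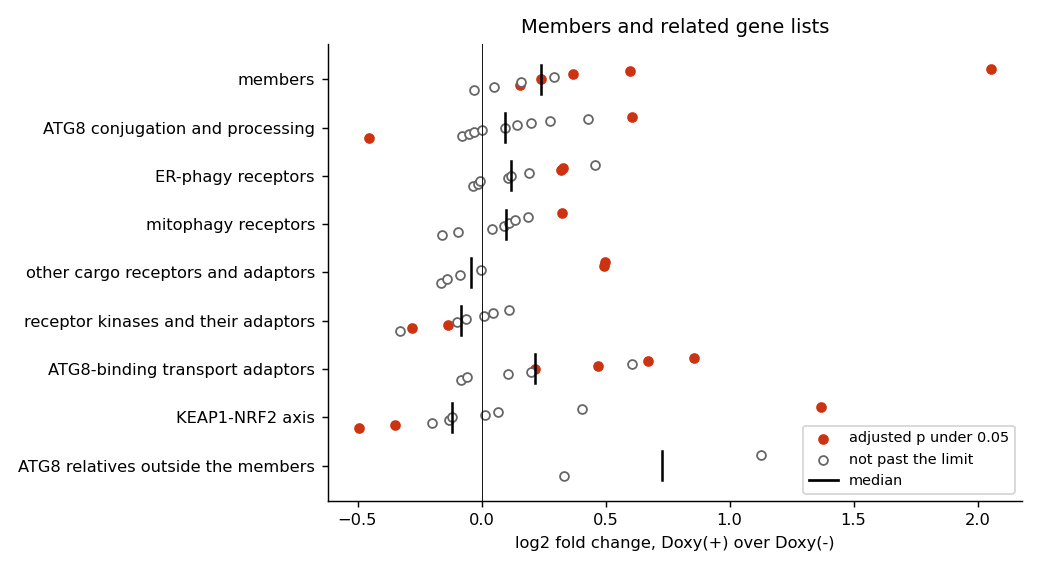
Log2 fold change, Doxy(+) over Doxy(-), of the members and of each list of related genes; filled points passed an edgeR adjusted p under 0.05 and black lines are list medians. The median is 0.24 for the members, 0.21 for the transport adaptors and -0.12 for the KEAP1-NRF2 axis.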

How the data were processed

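Per the study's methods, single-end reads of 75 bases were trimmed with Trim Galore 0.6.6 and cutadapt 2.5, aligned to hg38 with STAR 2.7.9a and quantified with RSEM. The deposited files have instead the column layout of kallisto, over 180253 Ensembl transcripts. The quantifier's version, annotation release and strand setting are not given in the sources used here. The estimated counts deposited by the authors are expected counts for each transcript, without normalization. The deposited TPM values are length-scaled abundances from the authors' quantifier.

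Estimated counts were summed per gene through GENCODE release 44, to which 150691 identifiers (83.6%) matched. Those without a match held between 9.66% and 9.89% of a library's counts and entered neither library sizes nor tests, and a member could have reads among them. Of the 113 member transcripts, 100 had the same length in the files as in GENCODE.

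Sums were rounded, and the test was the one of edgeR 4.0.16 under R 4.3.3 (glmQLFit and glmQLFTest, TMM, filterByExpr, group only), with Benjamini-Hochberg adjustment over 13569 genes. CPM uses TMM-scaled totals. Standard errors follow from the F statistic. Scripts ran in Python 3.11.15 and were tested on simulated data. These standard errors include the estimated spread between libraries, while the floor of 3 counts concerns counting error only.

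The members, the lists and the rule for named genes were chosen with earlier results of these data known. Named are all members, TFE3, the 2 genes with the smallest p in each related list, the 3 genes nearest to SQSTM1 in profile, and relatives and pseudogenes of members. The value of 1 marker gene is not reported here. As alternatives, 14 settings were RLE scaling, dropping the low-count filter, requiring a mean of 1 CPM, DESeq2 1.42.0, a replicate block, limma 3.58.1 on log2(TPM + 1) and on log2(TPM + 0.1), adding copies, coding transcripts only, adding pseudogenes, and leaving out each library. A further 3, chosen after seeing the data, added same-strand relatives, added opposite-strand neighbours or removed the longest SQSTM1 coding transcript.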

Additional observations from a re-analysis of the deposited data

How the results depend on the processing

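SQSTM1, MAP1LC3B and GABARAP kept their direction and their side of the adjusted p limit under every alternative that gave them a value. Their log2 fold changes ran from 0.64 to 2.47, from 0.53 to 0.64 and from 0.32 to 0.42. The 0.53 of MAP1LC3B came from adding its opposite-strand neighbour FBXO31, which by construction dilutes its counts. The MAP1LC3B transcripts analysed shared 0 windows on the opposite strand. SQSTM1 was at 1.52 and 1.54 by limma on log2(TPM + 1) and log2(TPM + 0.1), at 2.47 with coding transcripts only, and between 1.76 and 2.30 with a library left out. The number of members past the adjusted p and fold limits went from 1 to 0 without the longest SQSTM1 coding transcript and with opposite-strand neighbours added, which by construction removes or dilutes counts of SQSTM1. The number of members higher was 3 under limma with either pseudocount and ran from 3 to 5 with a library left out. OPTN kept its direction but missed the limit by limma, at 0.25 with either pseudocount, and ran from 0.23 to 0.25 with a library left out. TAX1BP1 kept its direction but missed the limit with no low-count filter (0.15), by DESeq2 (0.15), by limma with either pseudocount (0.19 and 0.19) and with coding transcripts only (0.19), and it ran from 0.15 to 0.16 with a library left out. GABARAPL2 ran from 0.17 to 0.42 with a library left out. NBR1, never past the limit, ran from -0.019 to 0.11, with -0.0021 without Doxy(-) replicate 2 and -0.019 without Doxy(+) replicate 2. GABARAPL1, also never past it, was at 0.049 and 0.050 by limma with the larger and the smaller pseudocount. The cause of these shifts was not tested. Where a library was left out, the lone sample of its group was assumed to vary like the other group.

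The groups share replicate numbers, but the labels do not say what a number marks, and the deviations of same-numbered libraries from their group means had a correlation of -0.0147. With the replicate block, TAX1BP1 was at 0.16 with an edgeR adjusted p of 0.0504, and it was the only member whose call the block changed. With 2 libraries per group, small changes such as those of CALCOCO2 and GABARAPL2 could not be settled, and MAP1LC3A was too low to test.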
